A study of Mus musculus with 6 samples.

Results

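Voltage-gated and potassium channel subunits were described in isolated pancreatic islets of hIAPP_Tg and wild_type mice. The members are all probe sets whose platform annotation gives 1 gene symbol of a Kcn, Cacna, Cacnb, Cacng or Scn channel subunit, without Kcnj11, Kcnj8 and the Scnn genes. Antisense and host transcripts (Kcnq1ot1, Kcnmb4os1, Kcnmb4os2) and Scnm1, a splicing factor, name no subunit and were left out. This gave 241 probe sets of 114 genes, out of 45037 probe sets and 18193 named genes in all.

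The 3 hIAPP_Tg mice (replicates 4 to 6) express human islet amyloid polypeptide from an insulin promoter, which is active in beta cells; this hormone is stored with insulin, and its human form readily aggregates. The 3 wild_type mice (replicates 1 to 3) lack it by label, and for both genotypes the strain is given as FVB/N-Tg(Ins2-IAPP)RFHSoel/J. All were labelled 12 weeks old, while the design text gives 10 to 12 weeks. They ate standard chow, and the islets of each mouse went on 1 Affymetrix array. The deposited values are on the log2 scale after RMA, rounded to 0.1, and differences are hIAPP_Tg minus wild_type. Each array had a median of 5.7 over its probe sets.

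Beta cells turn glucose metabolism into an electrical signal. When ATP-sensitive potassium channels close, the membrane depolarises, voltage-gated calcium channels open and calcium triggers insulin release. Sodium channels shape the upstroke of the action potential, and voltage-gated and calcium-activated potassium channels end it. Two-pore-domain potassium channels carry leak currents that set the resting potential. Most of these channels pair a pore-forming subunit with auxiliary subunits that set its gating or its number at the surface.

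Of the endocrine markers, 12 of 12 measured lay above the array median on all arrays, with list means of 12.82 to 12.98 in hIAPP_Tg and 12.94 to 13.07 in wild_type islets. RNA of other cells was present too. The 12 macrophage markers averaged 8.62 to 8.84 on the hIAPP_Tg and 7.33 to 7.48 on the wild_type arrays. By the brightest probe set, all 12 were higher in hIAPP_Tg islets with no overlap, beside 4.49% of all genes. The 11 acinar markers averaged 12.16, 9.72 and 11.2 on the hIAPP_Tg arrays and 11.08, 12.38 and 12.7 on the wild_type arrays, so the genotypes overlapped. In whole islets, fewer cells of a type and less RNA per cell cannot be told apart. The part of these cells in the channel values below was not tested.

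In limma, 0 channel probe sets had an adjusted p under 0.05 (Benjamini-Hochberg, over all 45037 probe sets), and 0.0289% of all probe sets did. The smallest adjusted p among the 241 was 0.419. At an unadjusted p under 0.05 there were 18 channel probe sets, 7.47% of them, beside 7.33% of all probe sets. Of these, 11 were higher and 7 lower in hIAPP_Tg islets, beside 3.82% and 3.51% of all probe sets in these directions. The shares lay near the background, so neither count is a result about channel genes. The median difference of the 241 probe sets was 0, as it was over all probe sets.

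Differences of single channel probe sets were small. They ran from -0.73 to 0.57, 97 of them above 0, 107 below 0 and 37 at 0 after rounding. Of the 241, 2 differed by 0.5 or more in size, beside 521 of all 45037 probe sets, or 1.16%. So small a count is not a result about channel genes. The mean over the 114 genes, each by its probe set with the highest mean, was 5.755 to 5.772 on the hIAPP_Tg arrays and 5.759 to 5.767 on the wild_type arrays. The median half-width of the 95% interval of a difference was 0.219, which is the precision that 3 arrays a group gave here.

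**Figure D1:**
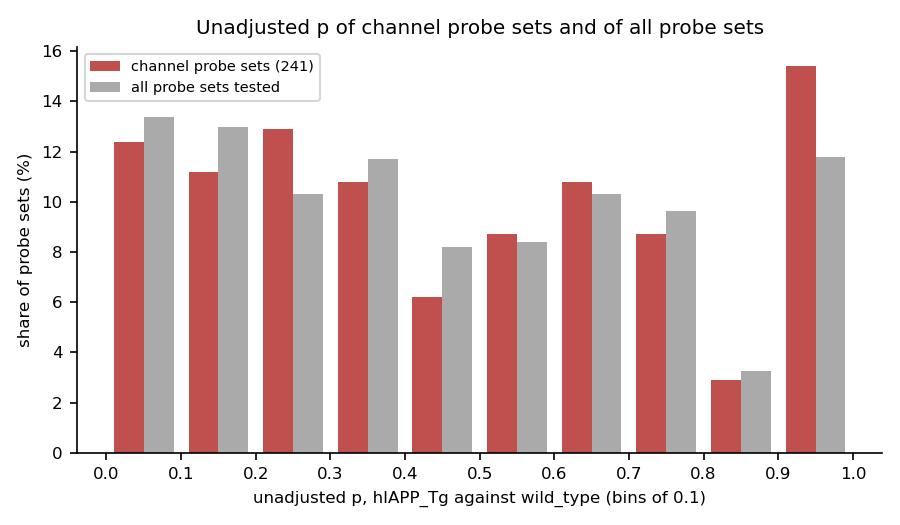
Share of channel probe sets (red, 241) and of all probe sets (grey) in bins of 0.1 of the unadjusted limma p, hIAPP_Tg against wild_type. In the lowest bin the shares were 12.4% of channel probe sets and 13.4% of all, and 15.4% and 11.8% in the highest.

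By role, the medians of the 11 groups of subunits lay between -0.03 and 0.07. The highest was that of the calcium- and sodium-activated potassium channels, and the silent Kv modifiers and the pore subunits of calcium and sodium channels shared the lowest. The group named Kv1 to Kv4 pore subunits holds 13 Kcna, Kcnc and Kcnd genes, and no Kv2 (Kcnb) gene is among them. It had the widest span, from -0.73 to 0.57. In it 3 of 34 probe sets were higher and 3 lower at an unadjusted p under 0.05, or 17.6% beside 7.33% of all probe sets. None of the 24 probe sets of Kv auxiliary subunits and none of the 24 of sodium channel pore subunits reached an unadjusted p under 0.05. In limma 0 of either passed after adjustment as well.

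**Figure D2:**
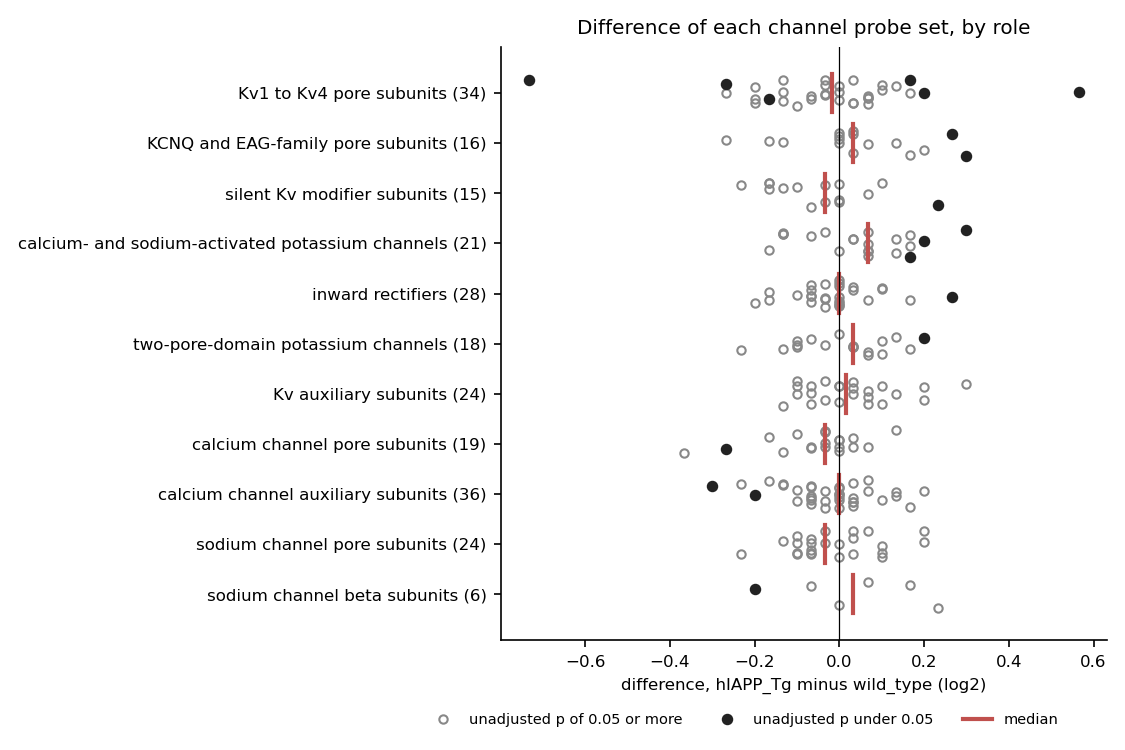
Difference of each channel probe set (log2, hIAPP_Tg minus wild_type) by role of the subunit, with the number of probe sets in parentheses. Filled points had an unadjusted p under 0.05 and red bars are medians, which lie between -0.03 and 0.07. The group labelled Kv1 to Kv4 holds no Kv2 (Kcnb) gene.

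The promoters of members whose genotypes separated most are shown because their differences are the largest without overlap. They are 3 of the 4 genes whose genotypes did not overlap at a difference of 0.3 or more, and Kcna1 is the fourth. The 250 bases before the RefSeq start of each gene (GRCm38.p6) are printed 5′ to 3′ on the gene's strand, with CpG dinucleotides in capitals.
Kcnh2 (chr5:24329592-24329841, minus strand): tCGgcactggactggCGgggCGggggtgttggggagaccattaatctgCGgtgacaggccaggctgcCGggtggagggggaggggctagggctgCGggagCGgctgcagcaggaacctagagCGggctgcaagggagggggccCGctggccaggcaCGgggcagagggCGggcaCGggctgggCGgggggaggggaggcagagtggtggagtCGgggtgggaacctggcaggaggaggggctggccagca
Kcna5 (chr6:126535556-126535805, minus strand): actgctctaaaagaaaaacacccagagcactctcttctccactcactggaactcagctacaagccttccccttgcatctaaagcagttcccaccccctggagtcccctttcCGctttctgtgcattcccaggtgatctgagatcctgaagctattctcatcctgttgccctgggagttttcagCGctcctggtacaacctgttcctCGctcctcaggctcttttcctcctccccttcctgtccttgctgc
Cacng7 (chr7:3332575-3332824, plus strand): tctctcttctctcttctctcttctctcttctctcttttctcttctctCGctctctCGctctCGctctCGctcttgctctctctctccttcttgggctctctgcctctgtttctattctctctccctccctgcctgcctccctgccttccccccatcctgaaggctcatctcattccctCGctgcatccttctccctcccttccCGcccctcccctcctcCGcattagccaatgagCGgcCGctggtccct
The Kcnh2 window held 14 CpG, that of Cacng7 9 and that of Kcna5 3. The median over 27025 genes of the RefSeq table was 6, and over the 88 channel genes matched there it was 8. The median was 8 for the 34 matched channel genes above the array median on all arrays and 9 for the 43 at or below it on all arrays. The letters TATAAA, read on the gene's strand only, stood in 3.41% of these channel windows and in 8.12% of all windows of this length.

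Channels tied to the beta-cell action potential were read first. A list of 25 such genes was used, of which 21 were measured and the others were not analysed here. Of all 241 channel probe sets 68, or 28.2%, lay above the array median on all arrays, beside 45.7% of all probe sets. By the brightest probe set, 15 of the 21 genes lay above the array median on all arrays, 1 on some and 5 on none. Counted in the same way, 46 of the 114 channel genes and 11143 of all 18193 genes lay above it on all arrays. The brightest probe set of a gene is more often above the median, so these counts are not comparable with the shares of probe sets. Probes differ in how well they bind, so values of different genes are not set against each other. Of the 59 probe sets of these genes, 2 were higher and 1 was lower at an unadjusted p under 0.05, or 5.08% beside 7.33% of all probe sets.

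Among calcium channel pores, Cacna1d, an L-type channel of the beta cell, had 8.8, 8.8 and 8.8 on the hIAPP_Tg arrays, against 8.8, 8.7 and 8.7 on the wild_type arrays. The values touched at 8.8, and the difference was 0.07 with a 95% interval of -0.07 to 0.20 (limma adjusted p = 0.791). Its probe set may also bind other transcripts, as its _s_at suffix marks. Cacna1c, the other main L-type pore of mouse beta cells, stood at 7.8, 7.9 and 7.9 in hIAPP_Tg and 8.0, 8.3 and 8.1 in wild_type islets. All 3 hIAPP_Tg arrays lay below all 3 wild_type arrays, by 0.27 on average (95% interval -0.49 to -0.05, limma adjusted p = 0.557). The second Cacna1c probe set differed by -0.03 and its genotypes overlapped, at 6.1, 6.0 and 6.1 in hIAPP_Tg and 6.2, 6.0 and 6.1 in wild_type islets.

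The P/Q-type pore Cacna1a had 7.1, 6.9 and 7.1 on the hIAPP_Tg arrays and 7.3, 6.7 and 7.1 on the wild_type arrays, a difference of 0. The N-type pore Cacna1b also differed by 0, at 6.6, 6.5 and 6.5 in hIAPP_Tg and 6.7, 6.4 and 6.5 in wild_type islets. In both genes the wild_type arrays enclosed the hIAPP_Tg values. The R-type pore Cacna1e averaged 4.67 ± 0.12 in hIAPP_Tg and 4.53 ± 0.058 in wild_type islets (SD, n = 3 each). The T-type pore Cacna1g averaged 5.20 ± 0.10 in hIAPP_Tg and 5.27 ± 0.12 in wild_type islets. Both stayed below the array median on all arrays, so whether they exceed background is unknown. Cacna1h, another T-type pore, had 5.1, 5.8 and 5.6 in hIAPP_Tg and 5.7, 5.4 and 5.4 in wild_type islets, so its hIAPP_Tg arrays spread on both sides of the wild_type ones.

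The auxiliary subunits of calcium channels showed the same narrow range. Cacna2d1, the extracellular subunit that raises the number of channels at the surface, had 10.6, 10.8 and 10.3 on the hIAPP_Tg arrays, against 10.4, 10.7 and 10.7 on the wild_type arrays. The difference was -0.03, within the spread of either genotype (95% interval -0.40 to 0.33). Cacnb2, a cytosolic subunit that carries the pore to the membrane, was at 7.6 on each hIAPP_Tg array and at 7.6, 7.5 and 7.6 on the wild_type arrays. Cacng7, a relative of the muscle gamma subunit that also regulates glutamate receptors, had 6.9, 6.7 and 6.7 in hIAPP_Tg and 7.1, 7.0 and 7.1 in wild_type islets. The genotypes did not overlap on this probe set (difference -0.30, SE 0.078, limma adjusted p = 0.503). On the other Cacng7 probe set, below the array median on all arrays, they differed by 0. Over the 15 auxiliary genes and their 36 probe sets, 0 were higher and 2 were lower at an unadjusted p under 0.05, or 5.56% beside 7.33% of all probe sets. Besides Cacng7, the other of these was a Cacng2 probe set at 6.0, 5.9 and 6.0 in hIAPP_Tg and 6.2, 6.1 and 6.2 in wild_type islets, while the 2 remaining Cacng2 probe sets differed by -0.07 and 0.03.

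Sodium channels were at similar values in both genotypes. Scn9a had 8.1, 8.4 and 7.9 on the hIAPP_Tg arrays and 8.0, 7.9 and 7.9 on the wild_type arrays, on an _x_at probe set that may bind other transcripts too. The difference of 0.20 came mainly from hIAPP_Tg replicate 5 and had a 95% interval of -0.11 to 0.51. Without that array the difference was 0.067. Scn3a averaged 6.00 ± 0.10 in hIAPP_Tg and 6.03 ± 0.21 in wild_type islets. Scn8a was at 7.1 on each hIAPP_Tg array and at 7.1, 7.0 and 7.1 on the wild_type arrays. Of the beta subunits, which tune gating and bind neighbouring cells, Scn3b had 6.8, 6.7 and 6.7 in hIAPP_Tg and 6.5, 6.3 and 6.7 in wild_type islets. One wild_type array reached the hIAPP_Tg range, and the limma adjusted p of Scn3b was 0.632. Scn2b had 3 probe sets with differences of -0.20, -0.07 and 0.17, of which the first reached an unadjusted p under 0.05.

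Among potassium channels Kcnh2, the ERG channel that repolarises cardiac and endocrine cells, had the smallest p of all members. It stood at 9.2, 9.3 and 9.3 in hIAPP_Tg and 8.9, 9.0 and 9.0 in wild_type islets. All hIAPP_Tg arrays lay above all wild_type arrays, and each genotype spanned 0.1. The difference was 0.30 (SE 0.063, 95% interval 0.15 to 0.45), and it did not pass after adjustment (limma adjusted p = 0.419). Kcnh2 has 1 probe set here, so no second reading of the gene was at hand. Over the alternatives run its difference stayed between 0.26 and 0.33, with adjusted p down to 0.256. Its relative Kcnh3 had 8.1, 8.0 and 8.1 in hIAPP_Tg and 8.2 on each wild_type array, while Kcnq1, which repolarises heart and epithelial cells, averaged 6.47 ± 0.15 in hIAPP_Tg and 6.43 ± 0.12 in wild_type islets.

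Leak channels of the two-pore-domain family followed. Kcnk16, the TALK-1 channel enriched in islets, had 9.6, 9.1 and 9.2 on the hIAPP_Tg arrays and 9.1, 9.3 and 9.1 on the wild_type arrays. Replicate 4 alone lay above the wild_type range, and without it the difference of 0.13 became -0.017. Kcnk3, an acid-sensitive leak channel, averaged 6.83 ± 0.15 in hIAPP_Tg and 6.93 ± 0.15 in wild_type islets. Kcnk1, a weak leak channel, had 9.4, 9.6 and 9.6 in hIAPP_Tg and 9.3, 9.4 and 9.3 in wild_type islets, with the genotypes touching at 9.4 (difference 0.20, limma adjusted p = 0.620). Its second probe set differed by 0.10. Kcnk13, which microglia express, differed by -0.03 and Kcnk6 by 0.17, both with overlap. Over the 12 genes of this family 1 of 18 probe sets was higher and 0 were lower at an unadjusted p under 0.05, or 5.56% beside 7.33% of all probe sets.

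**Figure D3:**
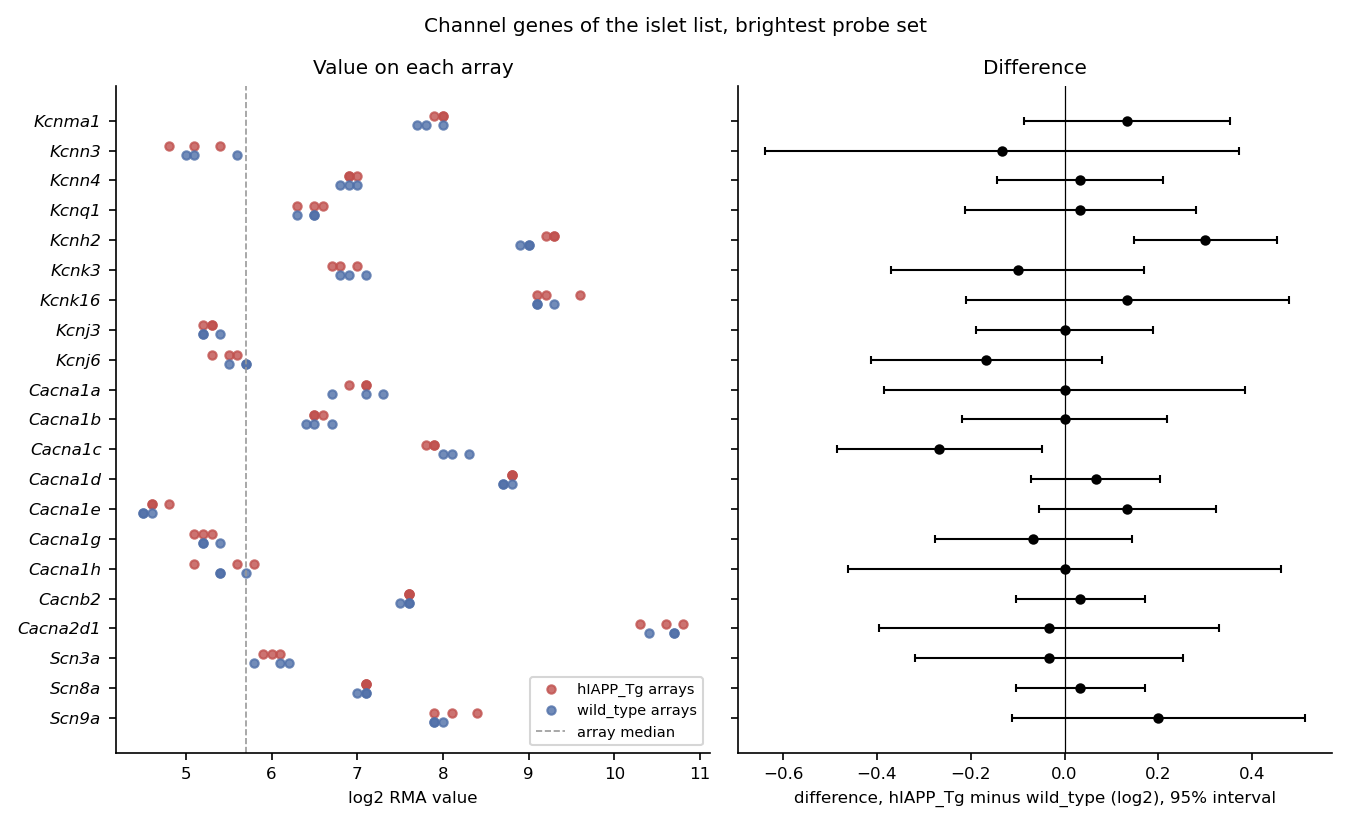
Left, log2 RMA value of the 21 channel genes of the islet list on each array, with hIAPP_Tg arrays (red) above wild_type arrays (blue) and the array median of 5.7 dashed. Right, difference with its 95% interval. Kcnh2 (0.15 to 0.45) and Cacna1c (-0.49 to -0.05) had intervals that left out 0 before adjustment.

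Calcium-activated potassium channels give the brake that follows calcium entry. Kcnma1, the large-conductance pore, had 8.0, 7.9 and 8.0 in hIAPP_Tg and 7.8, 8.0 and 7.7 in wild_type islets on its brightest probe set. The difference of 0.13 had a 95% interval of -0.09 to 0.35. Its 5 probe sets differed by -0.17 to 0.30, and the one at 0.30 had an unadjusted p under 0.05, with genotypes that touched at 6.6. Its auxiliary subunit Kcnmb2, which inactivates the pore, had 10.1, 9.9 and 10.2 in hIAPP_Tg and 9.7, 10.1 and 9.9 in wild_type islets. Kcnmb4, another such subunit, had 6.0, 5.9 and 5.8 in hIAPP_Tg and 5.8, 5.6 and 5.7 in wild_type islets, and the values touched at 5.8. Kcnn4, the intermediate-conductance channel that T cells and macrophages also use, averaged 6.93 ± 0.058 in hIAPP_Tg and 6.90 ± 0.10 in wild_type islets.

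Of the small-conductance channels, Kcnn3 had 5.4, 4.8 and 5.1 in hIAPP_Tg and 5.6, 5.1 and 5.0 in wild_type islets, below the array median on all arrays and with wide overlap. One Kcnn1 probe set separated the genotypes, at 5.5, 5.6 and 5.5 in hIAPP_Tg and 5.3, 5.4 and 5.4 in wild_type islets, and the other differed by 0.03. Kcnu1, a pore known from sperm, was annotated to a probe set at 7.70 ± 0.20 in hIAPP_Tg and 7.63 ± 0.21 in wild_type islets. Among calcium- and sodium-activated channels 3 of 21 probe sets were higher and 0 lower at an unadjusted p under 0.05, or 14.3% beside 7.33% of all probe sets.

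Shaker-type (Kv1) pores held the largest differences of all members. Kcna5 had 5.5, 6.2 and 5.8 on the hIAPP_Tg arrays, against 5.4, 5.3 and 5.1 on the wild_type arrays. Every hIAPP_Tg array lay above every wild_type array, by as little as 0.1 for replicate 4 and most for replicate 5. The wild_type values and that of hIAPP_Tg replicate 4 lay below the array median. The difference was 0.57 (SE 0.18, limma adjusted p = 0.557), and 0.32 with the acinar marker mean as a covariate. Immune cells, macrophages included, express Kcna5, and the macrophage markers averaged 8.62, 8.76 and 8.84 on the same hIAPP_Tg arrays and 7.47, 7.48 and 7.33 on the wild_type arrays. Their part in this difference was not tested. Kcna3, the pore that often joins Kcna5 in such cells, had 4.5, 4.5 and 4.3 in hIAPP_Tg and 4.5, 4.4 and 4.4 in wild_type islets, a difference of 0 below the array median.

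On mouse chromosome 6 the RefSeq gene order has Kcna1 between Kcna5 and Kcna6. One of the 4 Kcna1 probe sets had 4.3, 4.6 and 5.1 in hIAPP_Tg and 5.6, 5.2 and 5.4 in wild_type islets. The genotypes did not overlap, but all values lay below the array median of 5.7 (difference -0.73, SE 0.21, limma adjusted p = 0.552). The brightest Kcna1 probe set had 6.1, 6.3 and 6.5 in hIAPP_Tg and 7.0, 6.2 and 6.5 in wild_type islets, which overlapped. The other 2 differed by -0.13 and 0.03. Kcna6 had 6.1, 6.0 and 6.1 in hIAPP_Tg and 6.2, 6.3 and 6.2 in wild_type islets on its brightest probe set, and differences of 0.07 and 0.10 on the others.

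**Figure D4:**
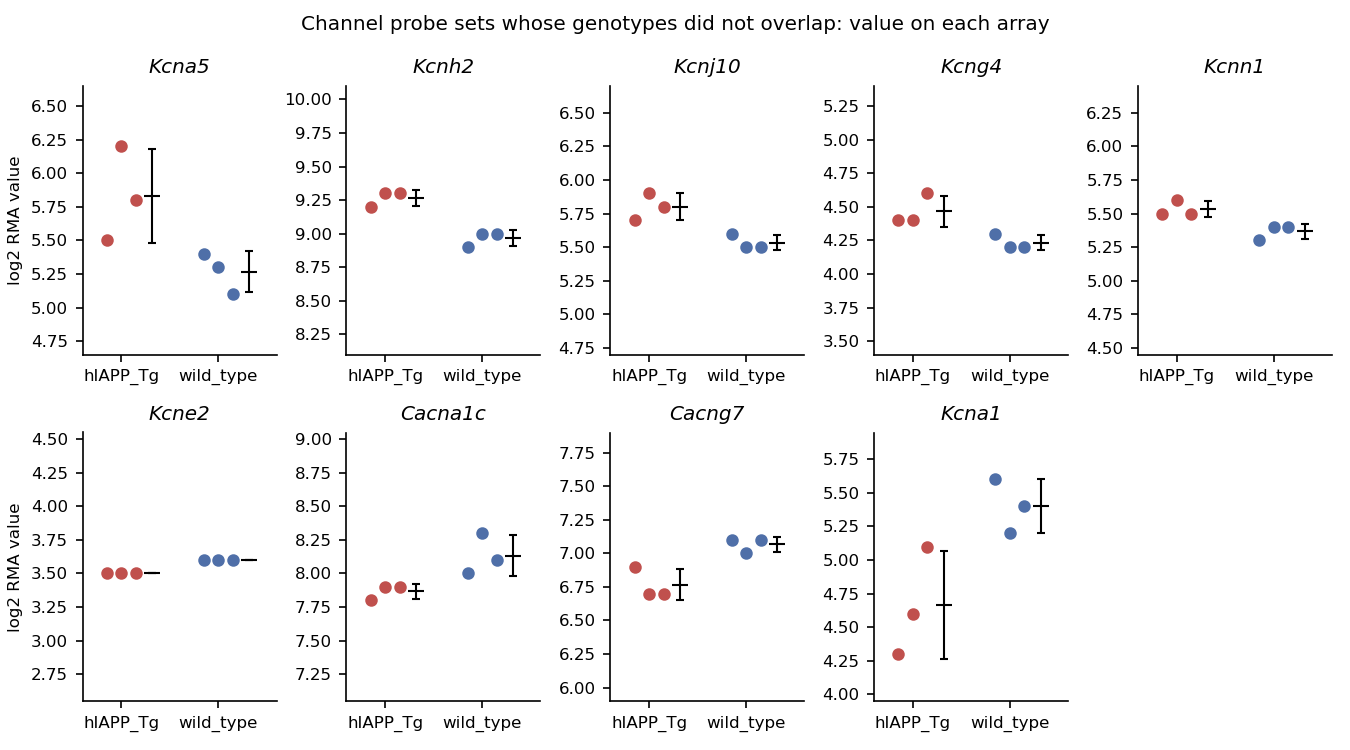
Value on each array (log2 RMA, points) with mean and SD (bars, n = 3) for the channel probe sets with no overlap that the naming rule took, hIAPP_Tg in red and wild_type in blue. Every panel spans 2 log2 units. Kcna5 and Kcna1 show the largest differences (0.57 and -0.73) and also the widest spread within hIAPP_Tg.

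For the other Kv pores, no gene had more than 1 probe set at an unadjusted p under 0.05. For Kcna2 1 of 4 probe sets was lower at an unadjusted p under 0.05, by 0.27, and the brightest differed by -0.03. For Kcnd1, the pore of a transient outward current, 1 of 3 was higher by 0.17, while the brightest differed by -0.20. For Kcnc4 the brightest probe set differed by -0.07 and the other by 0.20. Of the Kv auxiliary subunits, Kcnip1, a calcium sensor bound to Kv4 pores, had 9.6, 9.4 and 9.3 in hIAPP_Tg and 9.4, 9.6 and 9.4 in wild_type islets. Kcne2 was at 3.5 on every hIAPP_Tg array and 3.6 on every wild_type array, which is 1 rounding step. Among silent subunits, which join other Kv pores but form none alone, Kcng4 had 4.4, 4.4 and 4.6 in hIAPP_Tg and 4.3, 4.2 and 4.2 in wild_type islets, also below the array median.

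Of the inward rectifiers, 3 of 13 genes by the brightest probe set lay above the array median on all arrays. Kcnj3 and Kcnj6, the G-protein-gated subunits through which somatostatin and adrenaline hyperpolarise beta cells, differed by 0 and -0.17 (limma adjusted p = 0.720 for Kcnj6). Kcnj10, a channel of glia and of epithelia, had 5.7, 5.9 and 5.8 in hIAPP_Tg and 5.6, 5.5 and 5.5 in wild_type islets. The genotypes did not overlap (difference 0.27, SE 0.073, limma adjusted p = 0.503), around the array median. Of the Schwann and neural markers, 11 genes by the brightest probe set, 0 were higher and 1 was lower without overlap in hIAPP_Tg islets. This is 9.09%, beside 7.71% of all genes. The list means were 7.35 to 7.54 in hIAPP_Tg and 7.26 to 7.35 in wild_type islets. Over the 29 probe sets of this list the differences ran from -0.43 to 0.90.

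Over all 114 genes by their brightest probe set, 11 had genotypes that did not overlap, 5 higher and 6 lower in hIAPP_Tg islets. These are 9.65% of the genes, where 7.71% of all 18193 genes had no overlap, 4.49% higher and 3.22% lower. Of the 241 probe sets, 10 were higher and 11 lower without overlap, 8.71% together beside 6.66% of all probe sets, of which 3.44% were higher and 3.22% lower. Besides Kcnh2, Kcna5, Kcnj10, Kcng4, Cacna1c, Cacng7, Kcna6, Kcnh3 and Kcne2, these were Kcnc2 with a difference of 0.13 and Kcns2 with one of -0.17. The count was 22 without hIAPP_Tg replicate 4, 20 without hIAPP_Tg replicate 6 and 18 without wild_type replicate 3, since fewer arrays overlap less often. These are 19.3%, 17.5% and 15.8% of the channel genes, beside 16.8%, 13.5% and 12% of all genes without the same array. Without hIAPP_Tg replicate 5 the count was 13, or 11.4% beside 12.1% of all genes. It was 15 without wild_type replicate 1 and 15 without wild_type replicate 2, or 13.2% each, beside 14.5% and 15.6%. The channel share was thus above that of all genes without some arrays and below it without others.

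Probe sets of the same gene were then set side by side. Of the 114 genes 70 had several probe sets, up to 5, and in 35 of these the differences had both signs. A total of 18 genes had a probe set at an unadjusted p under 0.05. Of these, 13 had several probe sets, and in 0 of the 13 did a second one reach that p. Probe sets of one gene can lie in different exons or transcript ends.

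**Figure D5:**
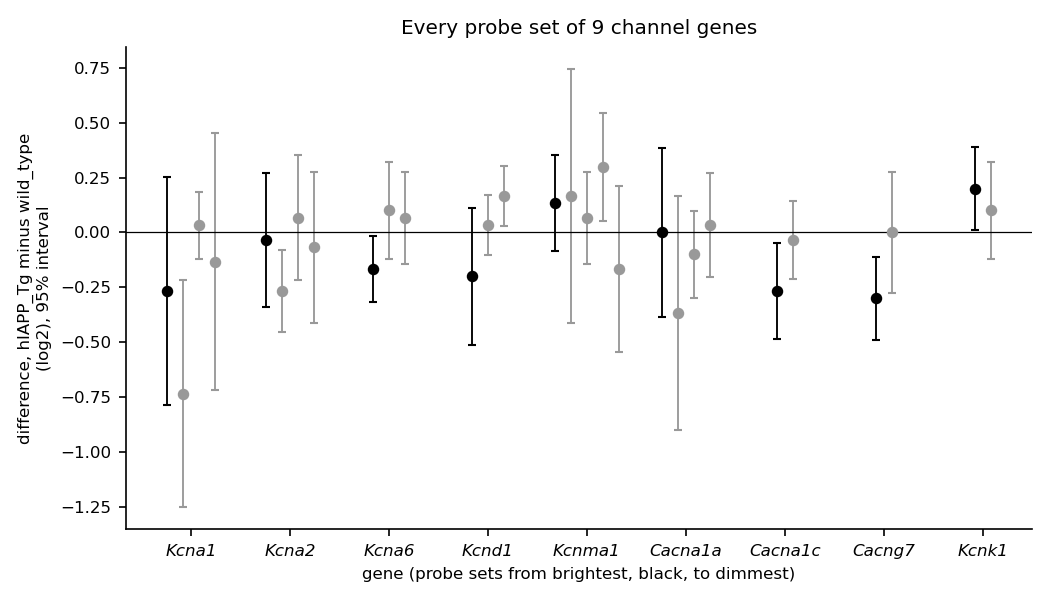
Difference (log2, hIAPP_Tg minus wild_type) with 95% interval for every probe set of 9 channel genes, the brightest in black and the others in grey. For Kcna1 the values run from -0.73 to 0.03, and for Kcnma1 from -0.17 to 0.30.

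The probe sets taken for the largest spread within a genotype varied most among wild_type arrays. A second Cacna2d1 probe set had 5.0, 5.2 and 5.4 in hIAPP_Tg and 5.9, 5.0 and 5.2 in wild_type islets. A Kcnma1 probe set had 7.8, 7.9 and 7.8 in hIAPP_Tg and 8.2, 7.2 and 7.6 in wild_type islets. A Cacna1a probe set had 6.3, 6.5 and 6.3 in hIAPP_Tg and 7.2, 6.3 and 6.7 in wild_type islets. In these, as in a Kcna1 and a Scn7a probe set that the rule on spread took too, wild_type replicate 1 was the highest and replicate 2 the lowest of the wild_type arrays. Over the 241 probe sets, wild_type replicate 1 lay at least 0.3 above the mean of its other 2 arrays in 23 and below it in 12, or 14.5% together. Of all probe sets, 17.4% departed that far. On wild_type replicates 1 to 3 the stellate and fibroblast markers averaged 8.68, 7.91 and 7.93, the endothelial and pericyte markers 8.40, 8.18 and 8.24, and the acinar markers 11.08, 12.38 and 12.7. Replicate 1 was thus the highest in the first and second of these lists and the lowest in the acinar list. Their part in the channel values was not tested.

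Next, 2 lists of other genes were set beside these channels. The first holds channel partners with other names, of which 21 of 24 were measured. The second holds other channels and ion pumps, of which 23 of 28 were measured. Together 44 of the 52 genes were measured, with 111 probe sets. None passed the adjusted threshold in limma, and 10 were higher and 5 lower at an unadjusted p under 0.05, or 13.5% together beside 7.33% of all probe sets. The share was 14.5% for the first list and 12.5% for the second. Both lists were chosen with earlier results of these data known, so the excess is not evidence about these genes. Their probe sets were also brighter, with 54.1% above the array median on all arrays beside 45.7% of all probe sets. Of all probe sets that bright, 9.33% reached that p. Abcc9, a sulfonylurea receptor of vascular potassium channels, had 7.8, 8.0 and 7.8 in hIAPP_Tg and 7.3, 7.4 and 7.2 in wild_type islets (difference 0.57, limma adjusted p = 0.269). This is an _s_at probe set that may bind other transcripts too. The other Abcc9 probe sets, below the array median on all arrays, differed by 0.20 each, with genotypes that touched or overlapped. Abcc8, the sulfonylurea receptor of the beta cell, differed by 0.20 and 0.07. The 11 endothelial and pericyte markers averaged 8.33 to 8.37 in hIAPP_Tg and 8.18 to 8.40 in wild_type islets, with overlap, but its members differed both ways. Over the 23 probe sets of this list differences ran from -0.33 to 0.83. At an unadjusted p under 0.05, 3 were higher and 2 lower, or 21.7% together beside 7.33% of all probe sets. By the brightest probe set, 1 gene was higher and 1 lower without overlap, or 18.2% beside 7.71% of all genes. None passed after adjustment in limma (smallest adjusted p = 0.503). The part of these cells in the Abcc9 difference was not tested.

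Dpp10, an auxiliary subunit of Kv4 channels, had 8.1, 7.9 and 8.1 in hIAPP_Tg and 8.4, 8.8 and 8.8 in wild_type islets. All hIAPP_Tg arrays were lower (difference -0.63, limma adjusted p = 0.419), and the second Dpp10 probe set differed by -0.27. The Kv4 pores themselves, Kcnd1 to Kcnd3, had differences of -0.20 to 0.17 over all their probe sets. Trpm5, a calcium-activated cation channel of beta cells, had 8.8, 8.6 and 8.8 in hIAPP_Tg and 9.0, 9.9 and 9.6 in wild_type islets on 1 probe set. That one is an _s_at probe set and may bind other transcripts. The brightest Trpm5 probe set, without that suffix, had no overlap either. It stood at 9.5, 9.5 and 9.6 in hIAPP_Tg and 9.7, 10.6 and 10.3 in wild_type islets. Over 3 Trpm5 probe sets the differences were -0.50 to -0.77 (limma adjusted p of 0.552 to 0.632). On the one at -0.50 the genotypes overlapped. Fgf13 and Fgf12, intracellular partners of sodium channels, differed by 0.60 and 0.40 on 1 probe set each without overlap. The second Fgf13 probe set differed by -0.13, and the others of Fgf12 by 0.10 and 0.30 with overlap. Unc79, part of the sodium leak channel complex, differed by -0.20, below the array median on all arrays.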

How the data were processed

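Islet RNA of 3 hIAPP_Tg and 3 wild_type mice was measured on 6 Affymetrix arrays, with separate mice per the sample titles. The authors deposited log2 values made with RMA in affy, per the submitters' processing notes, with versions not given here. Values came rounded to 0.1. Of 45101 probe sets, 64 controls were left out. Of the 45037 tested, 34945 have 1 gene symbol in the platform annotation, 932 several and 9160 none. Genotypes were compared by a moderated linear model (limma 3.58.1, R 4.3.3) with Benjamini-Hochberg adjustment over all tested probe sets and a threshold of 0.05. The fit was tested on simulated data. Arrays carry no read depth, and their number limits the precision.

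Genes named are the islet list, members with no overlap and a difference of 0.3 or more, the member of each role with the largest difference without overlap, the 5 with the largest spread and up to 3 partner genes per direction. Other named genes were chosen after their values were seen. The members and lists were chosen with earlier results of these data known. Alternatives changed the normalization, the filter on dim probe sets, the variance prior, array weights, averaging of probe sets, acinar markers as a covariate, and left out each array. Promoter windows are from RefSeq, and 88 of 114 genes matched.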

Additional observations from a re-analysis of the deposited data

How the results depend on the processing

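No channel probe set passed the adjusted threshold in limma under any of the 17 settings. Over all probe sets 13 passed, against 3 with the acinar markers as a covariate, 26 with array weights, 1 in an ordinary linear model, 30 after quantile normalization, 51 with a robust prior, and 1 to 4 when 1 array was left out. Among the 76 channel probe sets with means above the array median, 4 were higher and 4 lower at an unadjusted p under 0.05 (5.26% each, beside 5.1% and 3.54% of all such probe sets), and 5 genes had no overlap (10%, beside 8.89%). This setting holds fewer probe sets. Leaving out 1 array gave 8 to 13 higher, 4 (without hIAPP_Tg replicate 5) to 11 lower (without wild_type replicate 2) and 13 to 22 genes without overlap. The shares were 3.32% to 5.39% higher, 1.66% to 4.56% lower and 11.4% to 19.3% of genes, beside 3.23% to 5.62%, 3.35% to 4.51% and 12% to 16.8% over all features.

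Among the named channel genes, directions turned for differences of at most 0.17 in size. With the acinar covariate these were Kcnn4 at -0.033, Kcnq1 at -0.063, Scn3a at 0.096 and a Kcnma1 probe set at -0.026. With averaged probe sets they were Kcnn4 at -0.05, Cacnb2 at -0.033 and Scn8a at -0.02. These average all probe sets of a gene, while the differences given above are of its brightest alone. The other probe set differed by -0.13 for Kcnn4 and by -0.10 for Cacnb2, and those of Scn8a by -0.10 to 0.03. The cause of the turns with the acinar covariate was not tested. Leaving out 1 array gave -0.28 to 0.05 for Kcnn3, -0.017 to 0.083 for Kcnn4, -0.033 to 0.12 for Kcnq1, -0.017 to 0.23 for Kcnk16, -0.15 to 0.10 for Cacna2d1 and -0.35 to 0.10 for its variable probe set, -0.15 to 0.05 for Scn3a, -0.40 to 0.10 for the variable Kcna1 probe set and -0.067 to 0.43 for that of Kcnma1. The Kcna1 probe set without overlap ran from -0.95 to -0.55, with -0.28 for the gene's averaged probe sets, and Kcna5 from 0.38 (without hIAPP_Tg replicate 5) to 0.73, with 0.32 under the acinar covariate. No paired analysis was possible because the genotypes share no replicate number.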
